A study of Homo sapiens with 4 samples.

Results

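Viruses enter cells by binding proteins that the cell makes for other purposes. The genes described here code for 8 surface proteins that viruses bind and for TMPRSS2, which is not a receptor but a surface protease that cleaves viral fusion proteins. They were chosen by name, as the probes whose RefSeq accession maps to CXADR, CD46, CD55, TMPRSS2, NECTIN1, NECTIN2, PVR, SCARB1 or CD81, and made up 9 of the 17217 named genes, 11 of the 24000 targets (1 RefSeq transcript each) and 33 of the 71998 probes. All 9 were on the array. The RNA came from HEK293, an immortal human embryonic kidney line made with adenovirus DNA and a common host for receptors, vectors and viruses. The 4 arrays held 4 biological replicates of a single untreated group, grown in DMEM with 10% serum, each from its own plate and extraction. No treated, mutant or infected group was measured, so the arrays showed only which messages the untreated line contained, as relative signal and not as protein on the cell surface.

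As background, these proteins belong to a few families. CXADR is an adhesion protein of tight junctions and binds coxsackie B viruses and most adenoviruses. CD46 and CD55 protect cells from their own complement, and serve measles vaccine strains and some adenoviruses (CD46) or echoviruses and coxsackieviruses (CD55). NECTIN1, NECTIN2 and PVR are related adhesion proteins of the immunoglobulin superfamily. NECTIN1 binds the glycoprotein D of herpes simplex viruses, NECTIN2 binds that of some strains only, and PVR is the poliovirus receptor. SCARB1 takes up lipid from high-density lipoprotein and CD81 is a tetraspanin, and both are used by hepatitis C virus. TMPRSS2 primes the surface proteins of influenza viruses and coronaviruses.

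HEK293 cells contained message above the baseline for 7 of the 9 genes, CXADR, CD46, CD55, NECTIN2, PVR, SCARB1 and CD81, beside 52.7% of all named genes. Their signals stood 2.96 to 4.11 log2 units above the baseline, which is the mean plus 2 SD of seminal protein genes thought to be silent in the line. TMPRSS2 lay below the baseline on all 4 arrays. NECTIN1 lay at the baseline when its 3 targets were averaged, but 1 of those targets lay above it on all 4 arrays. The call of NECTIN1 depended on the control genes: with olfactory receptor genes as the controls it stood at 1.95 log2 units. Without AFG2A (SPATA5) and SPATA13, the highest of the seminal control genes, the baseline averaged 7.78 log2 units over the arrays, against 10.10 with them.

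The promoters of PVR and NECTIN2, detected relatives on the same chromosome, are shown because these genes had strong signals on every array. RefSeq gave a promoter for 4 members, here the 250 bases before the start on build GRCh38.p14. Capitals mark GGGCGG or its reverse CCGCCC, the core of the GC box that Sp1 factors bind, searched on both strands. The window of PVR is chr19:44643660-44643909 and that of NECTIN2 is chr19:44846047-44846296, both on the plus strand.
PVR: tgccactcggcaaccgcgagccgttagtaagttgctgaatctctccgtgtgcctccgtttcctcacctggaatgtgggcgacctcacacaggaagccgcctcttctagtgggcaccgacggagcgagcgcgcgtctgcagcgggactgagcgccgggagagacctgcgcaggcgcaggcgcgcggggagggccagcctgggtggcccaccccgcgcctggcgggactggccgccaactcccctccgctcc
NECTIN2: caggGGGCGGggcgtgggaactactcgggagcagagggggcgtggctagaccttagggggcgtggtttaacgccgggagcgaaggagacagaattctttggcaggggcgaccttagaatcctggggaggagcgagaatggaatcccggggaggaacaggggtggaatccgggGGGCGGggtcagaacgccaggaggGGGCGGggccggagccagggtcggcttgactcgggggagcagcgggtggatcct
The NECTIN2 window held 3 matches and the PVR window held 0, while 42.6% of 35116 promoter windows of this length held at least 1. PVR had 27 CpG dinucleotides and NECTIN2 had 19, against a median of 11 over all windows. CD55 had 12 CpG dinucleotides and 1 match, and the 2 windows of CD46 had 19 and 21 with 2 and 3 matches. TATAAA or its reverse was in none of the members' windows and in 10.7% of all windows. A match describes the letters of the window only. CXADR, TMPRSS2, NECTIN1, SCARB1 and CD81 had no entry.

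The arrays themselves set the scale of what can be read. Levels of all genes correlated between arrays with Pearson's r of 0.949 to 0.977 across genes, which are not independent replicates. The baseline had values of 9.47, 9.94, 10.69 and 10.32 log2 units for replicates 1 to 4. In replicates 1 and 2, and likewise in 3 and 4, sorted values were nearly the same, as normalization within pairs would give. Of the markers looked at, all 10 reference genes and 3 of 4 neuronal markers were detected, and limma called 10 and 2. The third neuronal marker, NEFM, stood at 0.66 ± 3.08 log2 units (SD, n = 4, limma adjusted p = 0.064), above the baseline on replicates 1 and 3 and below it on 2 and 4, and without replicate 1 the count was 2 of 4. Of the other markers, 0 of 8 kidney tubule and podocyte markers, 0 of 6 leukocyte markers and 0 of 4 hepatocyte markers were detected. As background, 1 of 364 olfactory receptor genes and 0 of 20 Y-linked genes were detected.

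**Figure D1:**
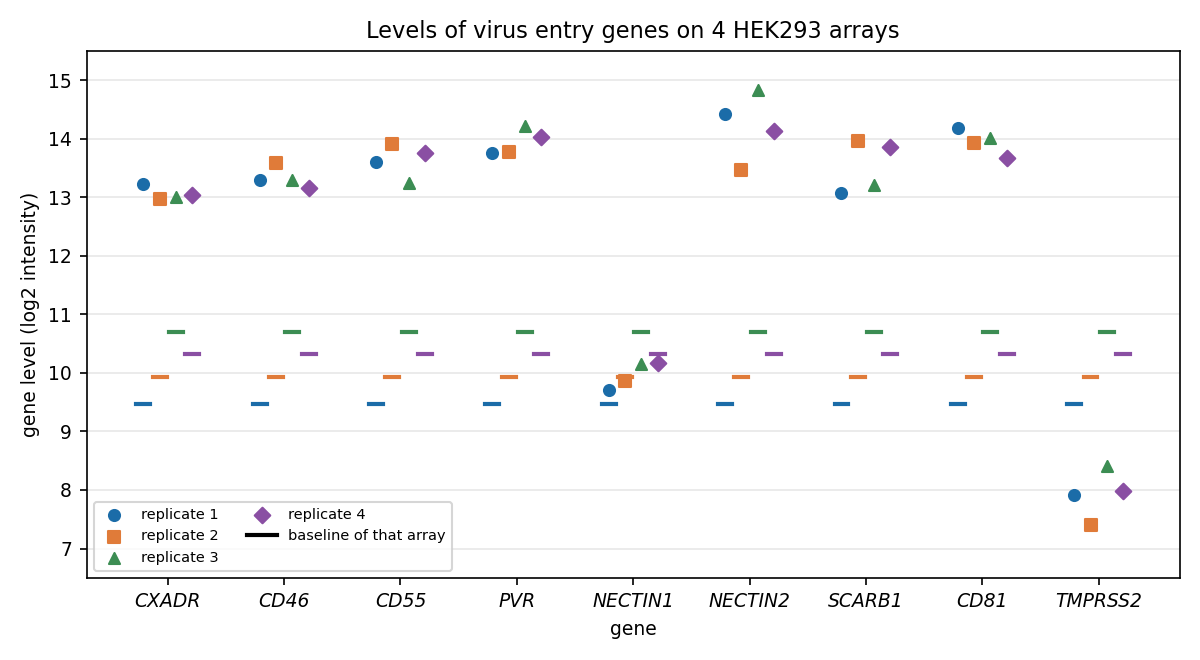
Log2 intensity of each gene (vertical axis) on the 4 HEK293 arrays (coloured points, 1 per replicate), with a short line of the same colour at the baseline of that array. CXADR, CD46, CD55, PVR, NECTIN2, SCARB1 and CD81 sit between 12.97 and 14.83 on every array, NECTIN1 sits among the baselines and TMPRSS2 sits below them.

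The receptor of coxsackie B viruses and adenoviruses, CXADR, had gene levels of 13.22, 12.97, 13.01 and 13.04 log2 units on replicates 1 to 4. These were the most even values among the 9 genes, with an SD of 0.11 against a median SD of 0.42 over all genes. In all, 7 of the 9 genes had an SD below that median. CXADR stood 2.96 ± 0.61 log2 units above the baseline (SD, n = 4). Most of that spread came in with the baseline, which had an SD of 0.52 between arrays.

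Both complement regulators were far above the baseline. CD46 had levels of 13.28, 13.58, 13.30 and 13.15 on replicates 1 to 4, a distance of 3.22 ± 0.60 log2 units (SD, n = 4). CD55 had levels of 13.60, 13.91, 13.24 and 13.75, a distance of 3.52 ± 0.72 (SD, n = 4). The lowest CD55 level was on replicate 3, where 1 of its 3 probes read 6.20 while it read 11.49 to 11.70 on the other arrays. The other probes of CD55 read 13.23 and 14.24 on replicate 3, against 13.76 to 14.55 and 14.21 to 14.33 on the other arrays. Without the low probe the distance of CD55 was 4.02 ± 0.66 (SD, n = 4). Its levels were then 14.05, 14.39, 13.82 and 14.23 on replicates 1 to 4. Each was higher than with the probe, and replicate 3 was still the lowest. Among all probes on the array 64, or 0.0889%, lay more than 4 log2 units below the other arrays on replicate 3 alone, and 31 to 62 did so on each other array.

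Among the nectins and their relatives the levels differed widely from gene to gene. PVR had levels of 13.75, 13.78, 14.22 and 14.02 on replicates 1 to 4, and stood 3.84 ± 0.32 log2 units above the baseline (SD, n = 4). NECTIN2 had levels of 14.42, 13.46, 14.83 and 14.14, the widest range among the 9 genes, and a distance of 4.11 ± 0.61 (SD, n = 4). Each of the 3 NECTIN2 probes read lower on replicate 2 than on the other arrays, so the range did not rest on a single probe. NECTIN1 had levels of 9.71, 9.85, 10.15 and 10.17, and a distance of -0.13 ± 0.32 (SD, n = 4) that was within the spread between arrays. It was above the baseline on replicate 1, by 0.24, and below it on the other 3. NECTIN1 was brighter than nearly all background genes, since 1 to 2 of the 364 olfactory receptor genes and 0 of the 20 Y-linked genes lay above it on an array. With olfactory receptor genes as the controls it stood at 1.95 log2 units. Without the control genes AFG2A (SPATA5) and SPATA13 it stood at 2.19.

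The 3 targets of NECTIN1, each named for 1 transcript of the gene, did not read alike. The target NM_002855 stood 0.94 ± 0.27 log2 units above the baseline (SD, n = 4). Its levels were 10.80, 10.64, 11.58 and 11.16 on replicates 1 to 4, all above the baseline, and limma gave an adjusted p of 0.010 over all 24000 targets. The target NM_203286 stood at -0.06 ± 0.88 (SD, n = 4) and was above the baseline on replicates 1 and 2. The target NM_203285 stood at -1.28 ± 0.44 (SD, n = 4) and was below the baseline on all 4 arrays. For NM_203286 the names of 2 of the 3 probes end in 1329 and 1360. If these numbers are positions in the transcript, which the sources used here do not state, these 60-base probes share sequence. Probes differ in affinity, so the targets cannot be read as the relative amounts of the transcripts. Whether a target reads only the transcript it is named for was not tested.

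The pair used by hepatitis C virus was detected on every array. SCARB1 had levels of 13.06, 13.95, 13.21 and 13.85 on replicates 1 to 4, and a distance of 3.42 ± 0.63 log2 units (SD, n = 4). CD81 had levels of 14.19, 13.93, 14.01 and 13.67, and a distance of 3.84 ± 0.66 (SD, n = 4). All 3 CD81 probes were above the baseline on every array, with mean probe distances of 3.43 to 4.04.

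The protease TMPRSS2 had levels of 7.91, 7.40, 8.42 and 7.98 on replicates 1 to 4. It stood at -2.18 ± 0.43 log2 units (SD, n = 4), that is, below the baseline. None of its 3 probes read above the baseline on any array, 0 of 12 probe values. TMPRSS2 was brighter than most of the background genes, since 8 to 29 of the 364 olfactory receptor genes and 1 to 2 of the 20 Y-linked genes lay above it on an array. With olfactory receptor genes as the controls it stood at -0.10 log2 units. Whether a low level of TMPRSS2 message was present could not be decided on these arrays.

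**Figure D2:**
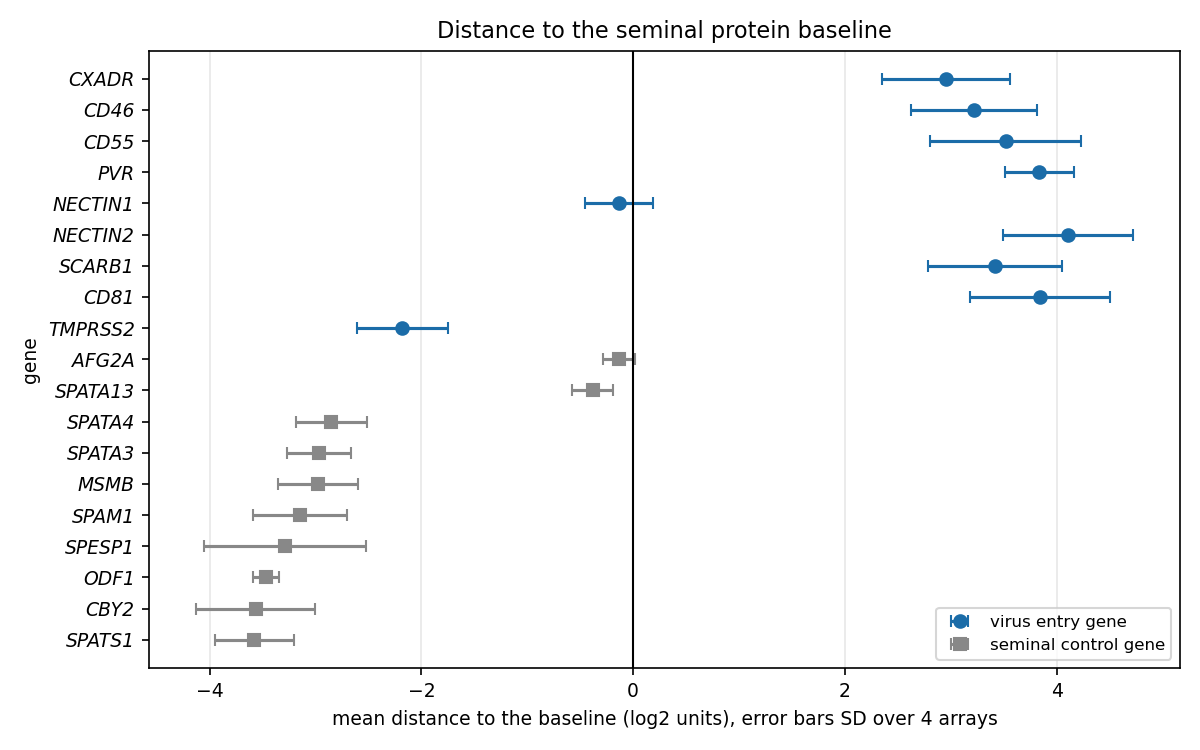
Mean distance of each gene to the baseline in log2 units (horizontal axis), with error bars of 1 SD over 4 arrays, for the 9 virus entry genes (circles) and the 10 seminal control genes (squares). The 7 detected genes lie at 2.96 or more, while NECTIN1 at -0.13 lies beside the 2 highest control genes, AFG2A (also named SPATA5) at -0.13 and SPATA13 at -0.38. The other control genes lie at -3.58 to -2.85.

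With the detection rule of the study, a mean distance above 0, 7 of the 9 genes were detected, beside 52.7% of all named genes. The same 7 were above the baseline on all 4 arrays, as were 45.0% of all genes. A one-sided limma test with adjustment over all genes called the same 7, beside 45.9% of all genes. The largest adjusted p among them was 1.1e-16, for CXADR. That test gave every gene the same standard error, so its call was a higher cutoff on the same mean distance. It is not separate support for the detection rule. NECTIN1 and TMPRSS2 both had an adjusted p of 1.0 in limma. No olfactory receptor gene and no Y-linked gene lay above any of the 7 on any array. The lowest level of these 7 was 12.97 and the highest olfactory receptor level was 11.33. The median distance over the 9 genes was 3.42 log2 units and over all genes 0.26.

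Of the 84 probe values of the 7 detected genes, 83 were above the baseline, and the exception was the CD55 probe on replicate 3. For NECTIN1 17 of 36 probe values were above it. The detection of the 7 genes therefore rested on all of their probes, apart from that CD55 probe, whose mean distance alone was 0.15.

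**Figure D3:**
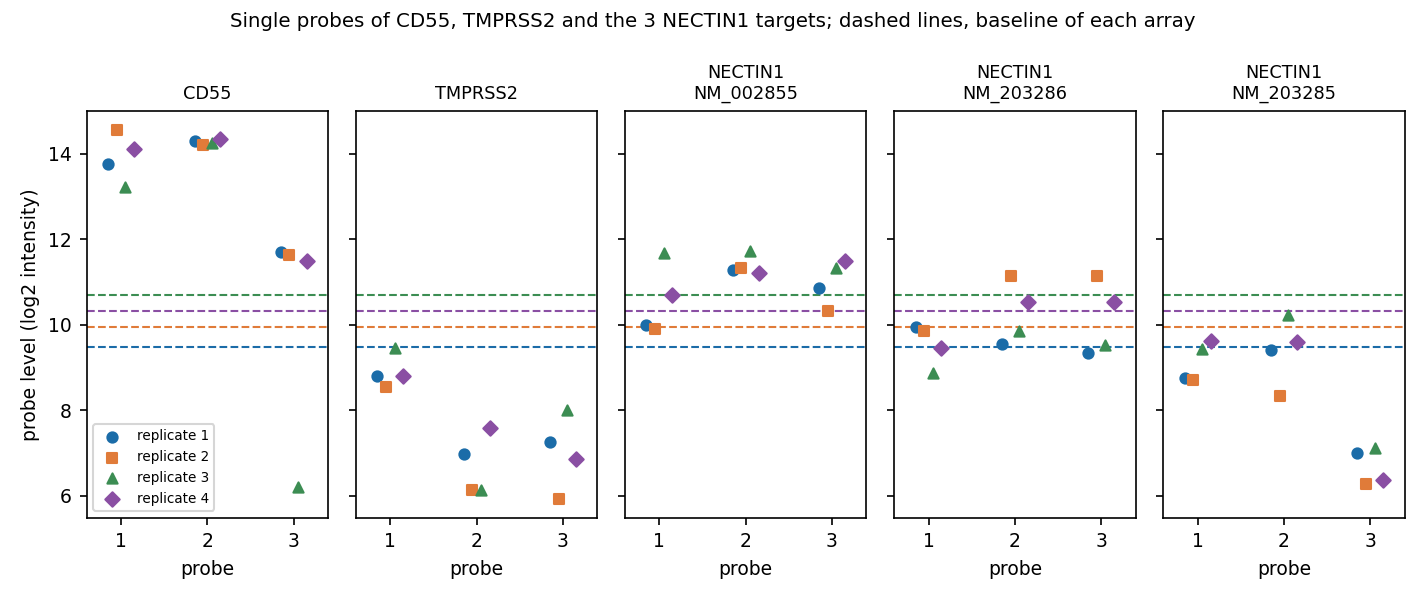
Log2 intensity of single probes (vertical axis) for CD55, TMPRSS2 and the 3 targets of NECTIN1, with 1 point per array at each probe and a dashed line of the same colour at the baseline of that array. The third CD55 probe reads 6.20 on replicate 3, all TMPRSS2 probes lie below the baselines, and of the NECTIN1 targets NM_002855 lies mostly above them and NM_203285 below.

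From the largest distance to the smallest the order was NECTIN2, CD81, PVR, CD55, SCARB1, CD46, CXADR, NECTIN1 and TMPRSS2. Neighbours in this order differed by less than the SD of their difference over the 4 arrays from NECTIN2 down to CD46. CD46 lay above CXADR by 0.27 ± 0.25 log2 units (SD, n = 4), on 4 of 4 arrays. The gap of 3.09 ± 0.31 between CXADR and NECTIN1 and that of 2.05 ± 0.34 between NECTIN1 and TMPRSS2 (SD, n = 4 for each) were far larger than their spread. This is an order of signals and not of messages, since each probe has its own affinity.

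Arrays differed in ways that touched some of these genes. CD81 and NECTIN2 were higher in each of replicates 1 and 3 than in either replicate 2 or replicate 4, and CD55 and SCARB1 were lower. For SCARB1 the mean level was 13.14 on replicates 1 and 3 and 13.90 on replicates 2 and 4. These pairs did not overlap for 4 of the 9 genes and for 40.7% of all genes, so the share of members was near that of all genes. NECTIN1, PVR and TMPRSS2, 3 of the 9, were lower in each of replicates 1 and 2 than in either replicate 3 or replicate 4, and so were 25.0% of all genes. That share counts this direction only, while the 40.7% counts either direction, so the 2 shares are not alike. Replicates 1 and 2, and likewise 3 and 4, are the pairs with nearly the same sorted values. None of these differences between arrays was as large as the distance of a detected gene to the baseline. The call of the 7 genes was the same within each pair of arrays.

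The families to which these proteins belong were partly detected. Of 9 nectins and nectin-like genes 6 were detected, among them CADM1, an adhesion protein, at 3.38 ± 0.79, NECTIN3 at 2.65 ± 0.54 and NECTIN4, the epithelial measles receptor, at 1.00 ± 0.35 log2 units (SD, n = 4 for each). CADM4 stood at 0.75 ± 0.31, while CADM2 at -3.58 ± 0.42 and CADM3 at -2.16 ± 0.96 were below the baseline (SD, n = 4 for each). The leukocyte receptors that bind PVR, NECTIN2 or related proteins, CD226, TIGIT, CD96 and CRTAM, gave 0 of 4 detected, at -3.77 to -3.15. Of 11 genes for CXADR-like immunoglobulin proteins 5 were detected, with the junction proteins JAM3 at 2.75 ± 0.69, F11R at 2.72 ± 0.73, JAM2 at 1.48 ± 0.64 and CLMP at 1.08 ± 0.67 (SD, n = 4 for each) beside CXADR.

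Of 9 matched complement regulators 3 were detected, CD55, CD46 and CR2, the receptor of Epstein-Barr virus on B cells, at 1.83 ± 0.88 log2 units (SD, n = 4). CD59, which blocks the last step of complement, stood at -0.51 ± 0.76 (SD, n = 4) and was above the baseline on 1 of 4 arrays. Class B scavenger receptors gave 2 of 3, SCARB1 and the lysosomal enterovirus receptor SCARB2 at 2.54 ± 0.99 (SD, n = 4), while CD36 stood at -3.03 ± 0.20 (SD, n = 4). Of 31 tetraspanins 17 were detected (54.8%), close to the share of all genes, and limma called 16. Known partners of CD81 gave 5 of 7, of which limma called 3. The tetraspanin CD9 stood at 4.22 ± 0.80 and the membrane protein PTGFRN at 3.16 ± 0.49 (SD, n = 4 for each). IGSF8 was above the baseline on all 4 arrays at 0.67 ± 0.75 (SD, n = 4, limma adjusted p = 0.063) but did not pass the test. ITGA4, an integrin subunit, did not pass it either, at 0.25 ± 0.64 (SD, n = 4, limma adjusted p = 0.482) and above the baseline on 3 of 4 arrays.

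The protease family of TMPRSS2, the type II transmembrane serine proteases, gave 0 of 16 detected, at -3.60 to -1.54 log2 units. All 16 means were below the baseline, so limma called 0 of them at an adjusted or an unadjusted p of 0.05. All 7 other proteases that cleave viral proteins were detected by the rule, and limma called 6. The endosomal protease CTSL stood at 3.85 ± 0.84 and the Golgi protease FURIN at 2.58 ± 0.60 (SD, n = 4 for each), while CTSB stood at 0.04 ± 0.69 (SD, n = 4, limma adjusted p = 0.870), above the baseline on 1 of 4 arrays.

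Sorted by virus, the genes around the 9 members showed which entry messages the cells contained. For adenoviruses 6 of 9 genes were detected. These were CXADR and CD46, the desmosomal receptor DSG2 at 4.20 ± 0.51, and the integrin subunits ITGB1 at 4.55 ± 0.82, ITGAV at 3.40 ± 0.85 and ITGB5 at 2.41 ± 0.55 (SD, n = 4 for each). The subunit ITGB3 stood at -0.85 ± 1.39 (SD, n = 4), above the baseline on 2 of 4 arrays. For hepatitis C virus 8 of 11 were detected and limma called 7, with the tight junction protein OCLN at 2.98 ± 0.50 and CLDN1 at 0.87 ± 0.70 (SD, n = 4 for each, limma adjusted p = 0.015 for CLDN1) beside CD81 and SCARB1. EGFR stood at 0.20 ± 0.50 (SD, n = 4, limma adjusted p = 0.558), above the baseline on 2 of 4 arrays.

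For herpes simplex viruses 6 of 10 genes were detected, and limma called 5. The heparan sulfate polymerase genes EXT1 and EXT2 stood at 3.62 ± 0.42 and 2.64 ± 0.62, and HS3ST3B1, whose enzyme makes a sulfated form that these viruses bind, at 2.46 ± 0.32 log2 units (SD, n = 4 for each). The related HS3ST3A1 stood at 0.0081 ± 0.62 (SD, n = 4, limma adjusted p = 0.932), above the baseline on 2 of 4 arrays, and the count was 5 without replicate 1 or without replicate 2. TNFRSF14, the herpesvirus entry mediator, stood at -2.13 ± 0.38 (SD, n = 4), below the baseline. For enteroviruses and rhinoviruses 10 of 14 were detected and limma called 9, with PVR, CD55 and CXADR among them. The 4 that were not detected are not reported here by name, so the count does not show that receptors of rhinoviruses were detected. For measles virus CD46 and NECTIN4 were detected, and SLAMF1, the receptor on lymphocytes, stood at -3.08 ± 0.30 (SD, n = 4). For coronaviruses 4 of 9 were detected. ANPEP and DPP4, receptors of different coronaviruses, stood at -1.02 ± 0.81 and -0.42 ± 0.71 (SD, n = 4 for each), and the receptor-like protein NRP1 at 2.41 ± 0.35 (SD, n = 4).

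**Figure D4:**
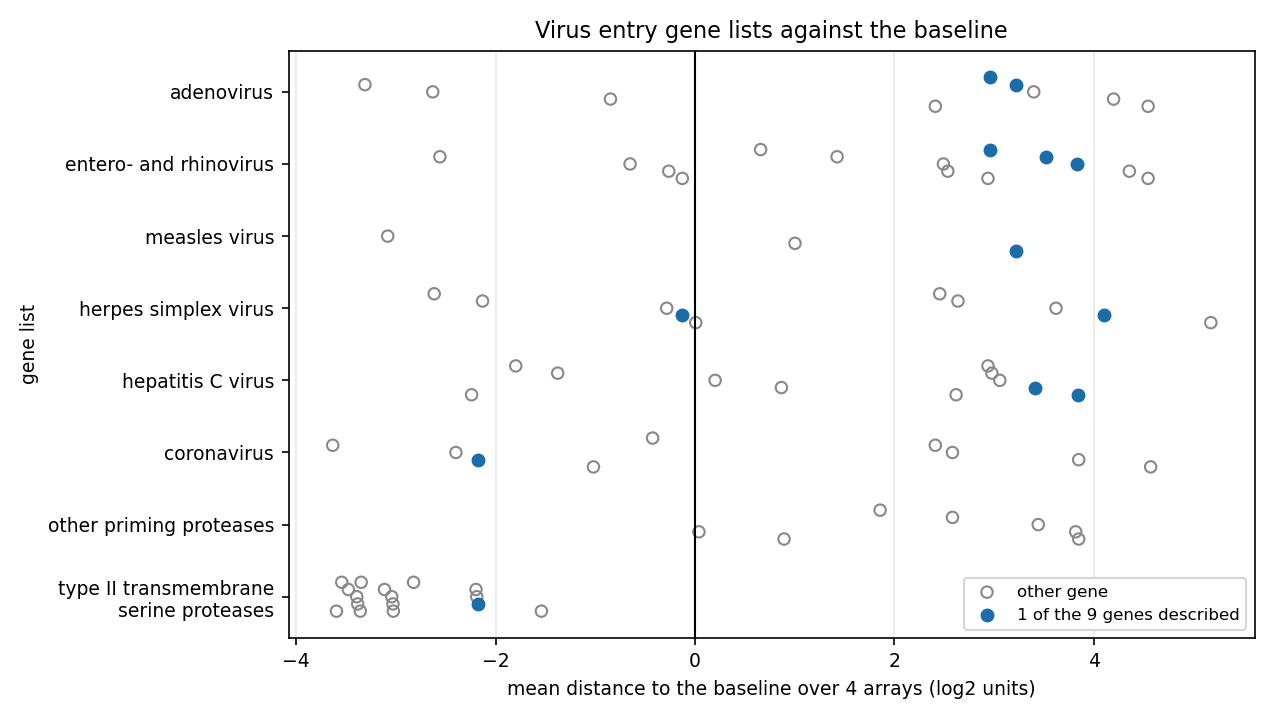
Mean distance to the baseline over 4 arrays in log2 units (horizontal axis) for the genes of 8 lists, spread vertically within a list only to separate the points; a gene can be in several lists. Filled points are the 9 genes described and open points other genes. The type II transmembrane serine proteases, TMPRSS2 included, all lie below the baseline, and the other priming proteases all lie above it.

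Over a wider list of 86 matched virus entry genes 52 were detected (60.5%), against 52.7% of all genes, and limma called 47, against 45.9%. Its median distance was 1.23 log2 units. Outside the 9 members 45 of 77 were detected. Among the 8 genes of that list with the largest mean distances were the retrovirus receptors SLC1A5 at 5.09 ± 0.83 and SLC20A1 at 4.82 ± 0.67, and the Lassa and Ebola virus receptors LAMP1 at 4.31 ± 0.63 and NPC1 at 4.11 ± 0.64 (SD, n = 4 for each). NPC1 and NECTIN2, next in that order at 4.11 ± 0.61 (SD, n = 4), differed by less than their spread, and on replicate 3 NECTIN2 was the higher. No test sets these lists apart from other genes.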

How the data were processed

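Total RNA of 4 HEK293 cultures was copied from an oligo(dT) primer, Cy3-labelled and hybridised to single-colour NimbleGen arrays of 60-base probes designed on HG18. The authors deposited 1 log2 intensity per probe and array. The submitters' processing notes name RMA, with no parameters; background and saturation of spots were not examined, and the number of arrays limits the precision. Probe accessions were matched without versions to RefSeq (GRCh38.p14), which named 19125 of 24000 targets and 17217 genes.

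Probes were averaged on the linear scale within a target and then put on the log2 scale, and targets of a gene were averaged as log2 values. The baseline, mean plus 2 SD over 10 matched seminal protein genes (of 11 in the study's methods), was computed and subtracted array by array. The distances were tested against 0 with limma 3.58 in R 4.3 (one-sided, Benjamini-Hochberg over all genes, threshold 0.05). The prior degrees of freedom were infinite, so every gene took a standard error of 0.35. A shift of a baseline moves all genes of an array, so the tests are not independent. The smallest p that exact sign flipping of 4 arrays allows is 0.0625 (one-sided). Members, gene lists and tests were chosen with earlier results of these data known. Beside the members, genes were named if their list held 12 or fewer matched genes or if they were among the 8 wider virus entry genes with the largest mean distances, counting genes over the baseline in each of the 4 arrays. Some list genes entered the counts and are not reported here by name. Probe sequences were not used here.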

Additional observations from a re-analysis of the deposited data

Results flagged for a closer look

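Dixon's test for 4 samples, at its 95% level, was applied to 51 items, the levels and distances of the 9 genes and the levels of their 33 probes. Chance marks about 1 in 20 such groups. No gene level or distance had an outlying array, and 2 probes had. For CD55 the third probe gave 6.20 on replicate 3, against 11.49 to 11.70 elsewhere, so that the gap took up 0.962 of the range. For PVR the second probe gave 14.55 on replicate 4, against 14.13 to 14.17 elsewhere, and the gap took up 0.900 of the range.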

How the results depend on the processing

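The 7 detected genes kept their direction and passed the limma test under every alternative baseline, summary, normalization and set of arrays run, at 1.64 (CXADR, mean plus 3 SD) to 6.43 log2 units (NECTIN2, without SPATA5 and SPATA13). Without 1 array each, they stood at 2.69 to 4.30. The number of members detected was 7 to 9, the number called by limma 7 to 8 and the number above the baseline on all arrays 7 to 8. The third CD55 probe alone stood at 0.15 (limma adjusted p = 0.985 over all probes). TMPRSS2 changed sign once, to 0.15 without SPATA5 and SPATA13 (limma adjusted p = 0.406).

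NECTIN1 depended on the baseline and on its targets. It lay above the baseline at 1.18 with the mean plus 1 SD, at 2.19 without SPATA5 and SPATA13, at 1.80 with Y-linked controls, at 1.95 with olfactory receptor controls and at 1.57 with the scaled median absolute deviation (MAD), and limma called it under each of these. It lay at 0.018 with the mean of log2 probe values, at 0.11 with the median of probe values and at 0.078 on replicates 1 and 2 alone, where limma did not call it. With its highest target it stood at 0.91 (limma adjusted p = 0.013). Leaving out 1 array gave -0.26 to 0.0025, above 0 only without replicate 3. Of its single probes those of NM_002855 stood at 0.46, 1.28 and 0.89 and those of NM_203286 that were above the baseline at 0.16 and 0.029. The target NM_002855 alone gave 0.94. The targets taken singly and CD55 without its low probe were alternatives chosen after the values were seen.

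Counts over all genes ran from 6731 (mean plus 3 SD) to 12747 (without SPATA5 and SPATA13), and the wider virus entry list from 43 to 70 of 86. Among smaller lists, 21 of 360 counts moved by over 1.5 times, most of them under lower baselines. Complement regulators rose to 5 or 6, coronavirus entry genes to 7, type II transmembrane serine proteases to 1 to 4, kidney markers to 1 to 4 and leukocyte markers to 1 or 2. With the mean plus 3 SD, CD81 partners fell to 3 and measles virus entry genes to 1. No paired analysis was possible because the labels hold a single group.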

Other observations

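Some members lie near each other on a chromosome. CD55 and CD46 stand on chromosome 1 with 3 protein-coding genes between them in the reference annotation, CR2, CR1 and CR1L, of which only CR2 was matched on the array. CR2 stood at 1.83 ± 0.88 log2 units (SD, n = 4) and was above the baseline on 4 of 4 arrays. PVR and NECTIN2 stand on chromosome 19 with 5 protein-coding genes between them, all matched, of which 2 were detected, CEACAM19 and BCAM, named after their values were seen.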
